A study of Mus musculus with 27 samples.

Results

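*Pparg* and 8 genes that are known targets of its product were followed in mouse liver: *Cd36*, *Fabp4*, *Mogat1*, *Plin2*, *Plin4*, *Plin5*, *Cidec* and *Cidea*. They were chosen by gene symbol from a table of RNA-Seq counts, which listed all 9 among 23191 symbols. The table held 27 livers of male C57BL/6J mice: 7 littermate controls on chow, 6 HGFAC-KO mice on chow, 7 littermate controls and 7 HGFAC-KO mice on a diet rich in fat and sucrose (HF/HS). The knockout is a whole-body CRISPR/Cas9 deletion from within exon 1 through exon 2 of *Hgfac*, which encodes a protease that activates hepatocyte growth factor. The labels list no further allele, Cre driver or transgene in any group. The diets began at 8 weeks of age, the HF/HS diet had 45% fat and 18% sucrose, and liver was taken after 4 weeks on the diet. The question was whether HGFAC-KO and diet moved the level of *Pparg* and of its lipid droplet targets, and whether these genes varied together from mouse to mouse.

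PPARG is a nuclear receptor that binds DNA as a partner of a retinoid X receptor and is switched on by fatty acids and their derivatives. It is the main regulator of fat cell formation, and it is scarce in healthy liver but rises in fatty liver, where its targets carry fatty acids into the hepatocyte, build triglyceride and coat the lipid droplet. CD36 takes up fatty acids at the cell surface, FABP4 carries them in the cytosol, and MOGAT1 adds a fatty acid to monoacylglycerol. PLIN2, PLIN4 and PLIN5 coat droplets, and CIDEC and CIDEA make droplets fuse and grow.

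The genes lie on 7 chromosomes in the GRCm38 build (GENCODE annotation). *Pparg* spans chr6:115360951-115490399 on the plus strand, and *Cidec* lies 1925 kb before it on chromosome 6, on the minus strand at chr6:113424634-113435760. *Plin4* (chr17:56100591-56109803) and *Plin5* (chr17:56111601-56117596) are neighbours on the minus strand, 1797 bases apart. *Cd36* spans chr5:17781690-17888801, *Fabp4* chr3:10204088-10208576 and *Plin2* chr4:86648386-86670060, each on the minus strand. *Mogat1* spans chr1:78510991-78538173 on the plus strand. On the opposite strand, *Pparg* overlaps Gm44079, *Plin4* overlaps *Hdgfl2*, *Mogat1* overlaps BC035947 and *Cidea* overlaps B430212C06Rik. The libraries were stranded, but whether the counting used the strand is not given in the sources used here, so reads of these partners may be in the values. The counts are per gene and do not separate the *Pparg* transcripts that start at different promoters.

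Promoter windows, from 250 bases before to 50 after a transcript start, were read from RefSeq (GRCm38.p6) for 7 of the 9 genes, 11 windows in all. *Fabp4* had no entry there, and *Cidea* was left out. The windows below belong to *Pparg*, to the gene that moved with diet (*Cd36*) and to the pair of droplet coat genes that varied together between mice (*Plin2* and *Plin5*). Capitals mark the nuclear receptor half-site AGGTCA, read on either strand (TGACCT is its reverse complement).
Pparg, chr6:115360894-115361193 (plus strand): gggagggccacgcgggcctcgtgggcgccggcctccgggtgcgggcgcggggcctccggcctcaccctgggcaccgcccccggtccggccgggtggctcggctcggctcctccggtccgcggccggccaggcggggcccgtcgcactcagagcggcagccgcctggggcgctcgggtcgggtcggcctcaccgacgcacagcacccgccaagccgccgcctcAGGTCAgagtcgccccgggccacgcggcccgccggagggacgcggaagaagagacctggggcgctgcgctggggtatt
Cd36, chr5:17835847-17836146 (minus strand): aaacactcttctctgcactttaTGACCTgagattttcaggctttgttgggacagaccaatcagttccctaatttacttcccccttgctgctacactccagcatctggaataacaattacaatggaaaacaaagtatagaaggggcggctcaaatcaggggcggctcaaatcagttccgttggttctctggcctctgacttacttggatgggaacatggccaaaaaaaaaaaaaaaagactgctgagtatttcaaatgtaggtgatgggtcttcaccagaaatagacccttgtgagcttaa
Plin2, chr4:86670010-86670309 (minus strand): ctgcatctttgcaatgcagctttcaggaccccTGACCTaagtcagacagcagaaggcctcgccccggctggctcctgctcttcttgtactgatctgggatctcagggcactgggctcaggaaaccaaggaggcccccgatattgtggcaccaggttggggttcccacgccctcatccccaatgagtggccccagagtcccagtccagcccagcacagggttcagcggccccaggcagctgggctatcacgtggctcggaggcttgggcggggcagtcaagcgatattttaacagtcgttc
Plin5, chr17:56117499-56117798 (minus strand): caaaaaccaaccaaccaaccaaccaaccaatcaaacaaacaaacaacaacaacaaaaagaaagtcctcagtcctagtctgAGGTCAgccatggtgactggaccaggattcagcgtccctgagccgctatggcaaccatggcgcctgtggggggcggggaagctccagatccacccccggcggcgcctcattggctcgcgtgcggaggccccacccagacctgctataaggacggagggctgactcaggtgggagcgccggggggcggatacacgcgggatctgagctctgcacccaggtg
The half-site was present in 6 of the 11 windows, those of 4 of the 7 genes (*Pparg*, *Cd36*, *Plin2* and *Plin5*), and in 16.3% of all 32851 promoter windows of the same length. The direct repeat of this half-site with 1 base of any kind between the copies, the textbook element of PPAR with its partner, was in none of the 11 windows and in 0.0396% of all windows. The *Plin2* window also held CACGTG, an E-box, starting 4 bases before the transcript start, as did 7.15% of all windows. CACGTG is its own reverse complement and shares no base with the half-site there. These matches describe letters and do not show that a protein binds.

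Levels are given in CPM, which are counts scaled to a common library size, here with TMM factors over all 27 mice. Per kilobase of annotated exon, *Plin2* had the highest mean level at 127 ± 16.7 CPM per kb (SD, n = 27 mice), followed by *Plin5* at 42.4 ± 6.31. *Cd36* (7.93 ± 2.67 CPM per kb), *Cidec* (4.90 ± 2.26), *Plin4* (2.20 ± 0.560), *Pparg* (1.73 ± 0.463) and *Fabp4* (1.24 ± 0.320) followed in that order, and each of these overlapped its neighbour within 1 SD. *Mogat1* was at 0.304 ± 0.101 CPM per kb and *Cidea* at 0.0270 ± 0.0419, both apart from their neighbours. Per length, mean *Plin2* was thus 73.9 times and *Plin5* 24.6 times the mean of *Pparg*. The annotated exons of *Fabp4* cover its whole span of 4489 bases, introns included, which lowers its value per kb.

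**Figure D1:**
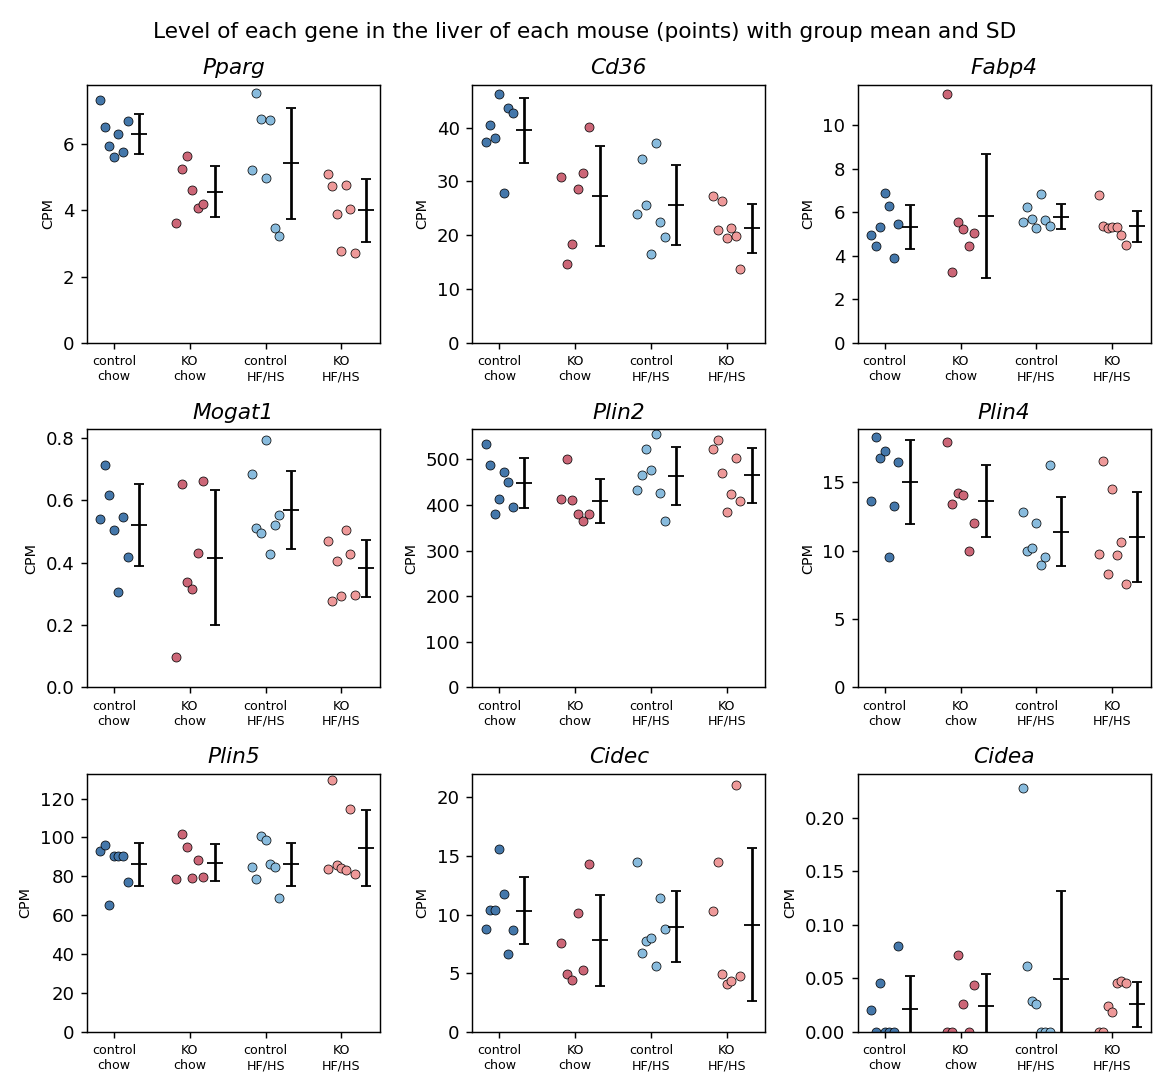
Level of each of the 9 genes in CPM (vertical axes, linear and starting at 0) in each mouse of the 4 groups. Points are mice and the black bars to their right are the group mean and SD, cut at 0 for *Cidea*. *Pparg* sat lower in HGFAC-KO than in control mice on each diet, at 72.3% of the control mean on chow and 73.8% on HF/HS, *Cd36* was highest in controls on chow, and *Plin2* and *Plin5* lay at similar heights in all groups.

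The deleted gene was checked first. *Hgfac* was between 183 and 219 CPM in controls on chow (median 201) and between 65.4 and 84.5 CPM in HGFAC-KO mice on chow (median 76.7). On HF/HS it was between 247 and 296 CPM in controls and between 81.8 and 101 CPM in HGFAC-KO mice. The genotypes did not overlap on either diet, and the mean in HGFAC-KO mice was 37.4% of controls on chow and 33.8% on HF/HS, counted over the whole gene with the exons outside the deletion included. The depth was 36056177 to 57298657 counts per mouse, at which 3 counts equal 0.0546 to 0.0875 CPM.

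Mean *Pparg* was lower in HGFAC-KO than in control livers on both diets, at 72.3% of the control mean on chow and 73.8% on HF/HS, and no comparison passed the threshold of an adjusted p of 0.05 over all genes tested in edgeR's quasi-likelihood test. On chow it was between 5.61 and 7.33 CPM in controls (median 6.31, mean 6.31 ± 0.598, SD, n = 7) and between 3.61 and 5.66 CPM in HGFAC-KO mice (median 4.40, mean 4.56 ± 0.770, n = 6). The ranges met at 1 mouse: 5 of the 6 HGFAC-KO mice were below the lowest control. The fitted log2 fold change was -0.46 (SE 0.105, 95% interval -0.69 to -0.24), and *Pparg* ranked 7 of 13571 genes by p, while its adjusted p was 0.801.

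On HF/HS, *Pparg* was between 3.24 and 7.55 CPM in controls (median 5.22, mean 5.42 ± 1.68, n = 7) and between 2.73 and 5.09 CPM in HGFAC-KO mice (median 4.03, mean 4.00 ± 0.956, n = 7). All 7 HGFAC-KO mice were below the control median, but control replicates 4, 6 and 7, at 4.99, 3.47 and 3.24 CPM, lay within the HGFAC-KO range. There the log2 fold change was -0.44 (SE 0.202, 95% interval -0.87 to -0.01, adjusted p = 0.502). Over both diets, with diet as a term, it was -0.45 (SE 0.118, 95% interval -0.70 to -0.21), rank 89 of 13932 genes, with an adjusted p of 0.0915. DESeq2 called it in that comparison (adjusted p = 0.0207), as the 1 of 7 alternatives that did, and limma voom did not (adjusted p = 0.098). In edgeR, leaving out control replicate 7 on HF/HS, the lowest control there, took it past the threshold (log2 fold change -0.50, adjusted p = 0.0334). This was 1 of 27 mice left out in turn, and the adjusted p ran up to 0.159. The difference between the diets in the effect of the knockout was 0.03 on the log2 scale (95% interval -0.46 to 0.52, adjusted p = 0.996).

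Neither diet comparison passed for *Pparg*. From chow to HF/HS the log2 fold change was -0.22 (95% interval -0.57 to 0.13, adjusted p = 0.449) in controls and -0.19 (95% interval -0.53 to 0.15, adjusted p = 0.519) in HGFAC-KO mice. The spread among controls was wider on HF/HS, with an SD of 1.68 CPM against 0.598 CPM on chow.

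Few genes of any kind were called between genotypes. Of 13571 genes tested on chow 0.00737% were called (1 gene, *Hgfac*), of 13544 on HF/HS 0.0148% (2 genes) and of 13932 over both diets 0.158% (22 genes), and 0 of the 8 members tested were among them. At an unadjusted p under 0.05, 2 members (*Pparg* and *Cd36*) stood on chow, 2 (*Pparg* and *Mogat1*) on HF/HS and 3 over both diets, where 812 of 13571, 1306 of 13544 and 1821 of 13932 genes stood there. DESeq2 and voom called 0 members on either diet alone, and DESeq2 called 1, *Pparg*, among its 180 genes over both diets. For the difference between the diets in the knockout effect the called share was 0% of 13932 genes (506 at an unadjusted p under 0.05), also 0 with DESeq2 and voom, and 0 of the 8 members were below 0.05 before adjustment. *Cidea* did not pass the filter on low counts, so 8 of the 9 members were tested. Groups did not overlap in 0.125% of genes for genotype on chow, 0.0812% for genotype on HF/HS, 3.53% for diet in controls and 3.01% for diet in HGFAC-KO mice, and none of the 8 members was among them.

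**Figure D2:**
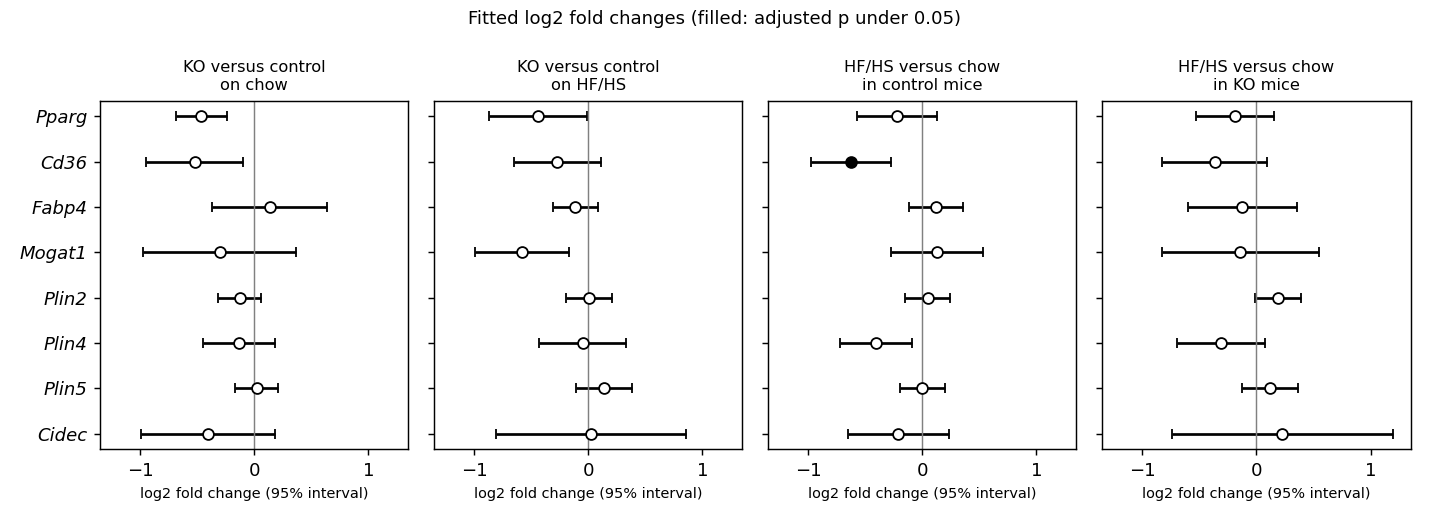
Log2 fold change (horizontal axes) with its 95% interval for the 8 members tested, in 4 comparisons. A filled point has an adjusted p under 0.05. *Cd36* in controls, at -0.62, is the one filled point, and the *Pparg* points for genotype lie at -0.46 and -0.44 with intervals below 0.

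*Cd36*, the fatty acid transporter, was the one member that changed with diet, and it fell. In controls it was between 27.9 and 46.3 CPM on chow (median 40.5, mean 39.5 ± 6.01, n = 7) and between 16.6 and 37.2 CPM on HF/HS (median 23.9, mean 25.7 ± 7.49, n = 7). On HF/HS 5 of 7 controls were below the lowest chow control, and the HF/HS mean was 65.0% of the chow mean. Its log2 fold change was -0.62 (SE 0.165, 95% interval -0.97 to -0.27, adjusted p = 0.0265), in a comparison where 5.6% of 13525 genes were called lower and 4.93% higher. The call was narrow: it was lost without control replicate 4 or 6 on chow or without replicate 6 on HF/HS (adjusted p = 0.0505, 0.0528 and 0.0523), and with the replicate number as a block (adjusted p = 0.0922). In HGFAC-KO mice *Cd36* was between 14.7 and 40.0 CPM on chow (median 29.7) and between 13.8 and 27.3 CPM on HF/HS (median 20.9). These ranges overlapped widely, and the log2 fold change was -0.36 (95% interval -0.82 to 0.09, adjusted p = 0.341), in a comparison where 2.73% of 13613 genes were called lower and 3.17% higher and where 0 members were below 0.05 before or after adjustment, with DESeq2 and voom also calling 0.

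Between genotypes, mean *Cd36* in HGFAC-KO mice was 69.3% of controls on chow and 82.9% on HF/HS. In log2 terms this was -0.52 on chow (SE 0.199, adjusted p = 0.801), -0.27 on HF/HS (SE 0.180, adjusted p = 0.653) and -0.40 over both diets (SE 0.140, adjusted p = 0.224). On chow, HGFAC-KO replicates 2 and 3 (14.7 and 18.3 CPM) lay below all controls, while the other 4, between 28.7 and 40.03 CPM, lay among them. The HF/HS value was -0.16 without control replicate 5.

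In bulk liver, fewer cells of a type and less RNA per cell cannot be told apart. *Cd36* and *Fabp4* are also made by the endothelium of vessels, and the level of *Cd36* from mouse to mouse moved with a list of 8 endothelial markers (*Pecam1*, *Cdh5*, *Stab2*, *Lyve1*, *Clec4g*, *Kdr*, *Tek* and *Egfl7*). With group means removed, Pearson's r between *Cd36* and the summed markers over 27 mice was 0.73 (permutation p = 5e-05) and Spearman's rho 0.67 (permutation p = 0.00048), with an adjusted p for r of 0.00204 over 68 relations. Pearson's r was 0.66, 0.80, 0.76 and 0.80 in the control chow, HGFAC-KO chow, control HF/HS and HGFAC-KO HF/HS mice, and 0.64 without the 2 mice farthest from the median of *Cd36*. For *Fabp4* the relation did not pass after adjustment: r was 0.52 (permutation p = 0.00788, adjusted 0.107), rho 0.52 (permutation p = 0.00978), and r was 0.38 without HGFAC-KO replicates 1 and 2 on chow. *Fabp4* had a like relation with 8 summed stellate markers (r = 0.56, permutation p = 0.0277, adjusted 0.209, rho 0.63 with permutation p = 0.00175) and a negative one with the adipocyte list (r = -0.45, permutation p = 0.0155, adjusted 0.176, rho -0.51 with permutation p = 0.00749), and neither passed after adjustment. The adipocyte sum came nearly all from *Pnpla2*, *Lipe* and *Adrb3*. The fat cell genes *Adipoq*, *Plin1* and *Retn* added almost nothing to it, so it is not a measure of fat cell content.

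On chow, the summed endothelial markers lay between 141 and 226 CPM (median 179) in controls, against 119 to 189 CPM (median 156) in HGFAC-KO mice. HF/HS controls lay between 166 and 270 CPM (median 227), and their HGFAC-KO counterparts between 154 and 236 CPM (median 206). Between genotypes, 7 of 8 markers had a negative fold change on each diet and 0 passed the test with edgeR (4 of 8 were under an unadjusted p of 0.05 over both diets), the direction that *Cd36* also had. The part of these markers in the lower *Cd36* was not tested. With diet in controls the markers and *Cd36* went opposite ways: 7 of 8 markers had a positive fold change (0 passed) and the median sum was higher on HF/HS, where *Cd36* was lower. The part of the markers in the diet difference of *Cd36* was not tested either.

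**Figure D3:**
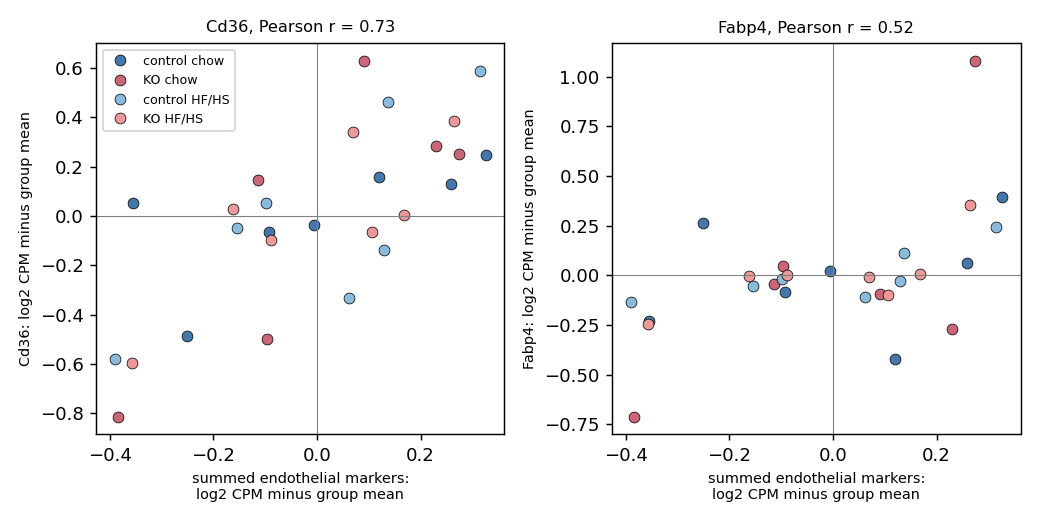
*Cd36* (left) and *Fabp4* (right), as log2 CPM minus the group mean (vertical axes), against the summed level of 8 endothelial markers on the same scale (horizontal axes). Each point is a mouse, coloured by group, and Pearson's r is 0.73 for *Cd36* and 0.52 for *Fabp4* over 27 mice.

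*Fabp4*, the cytosolic fatty acid carrier that is abundant in fat cells, was past the threshold in no comparison. It was between 3.90 and 6.89 CPM in controls on chow (median 5.31) and between 3.27 and 11.4 CPM in HGFAC-KO mice on chow (median 5.13). On HF/HS it was between 5.25 and 6.84 CPM in controls (median 5.66) and between 4.47 and 6.80 CPM in HGFAC-KO mice (median 5.30). The groups overlapped, and 1 mouse, HGFAC-KO replicate 1 on chow at 11.4 CPM, stood alone above the rest. The log2 fold change between genotypes was 0.14 on chow (95% interval -0.37 to 0.64, adjusted p = 0.916), and -0.18 without that mouse. On HF/HS it was -0.11 (95% interval -0.31 to 0.08, adjusted p = 0.722).

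*Mogat1*, the enzyme of the monoacylglycerol route to triglyceride, was scarce, with 4 to 33 counts per mouse. On HF/HS it was between 0.429 and 0.792 CPM in controls (median 0.522, mean 0.569 ± 0.125, n = 7) and between 0.278 and 0.503 CPM in HGFAC-KO mice (median 0.403, mean 0.381 ± 0.0925, n = 7). There 5 of 7 HGFAC-KO mice were below the lowest control, the mean was 66.9% of controls, and the log2 fold change was -0.58 (SE 0.193, 95% interval -0.99 to -0.17, adjusted p = 0.418). On chow it was between 0.307 and 0.713 CPM in controls and between 0.0976 and 0.660 CPM in HGFAC-KO mice, with a log2 fold change of -0.30 (95% interval -0.97 to 0.37, adjusted p = 0.854). The chow value was -0.10 without HGFAC-KO replicate 1, which had 4 counts. Over both diets the log2 fold change was -0.45 (SE 0.184, adjusted p = 0.292).

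*Plin2*, the coat protein of hepatocyte lipid droplets, was the most abundant member and had the smallest spread between mice, with an SD of 13.1% of its mean over the 27 mice. It was between 380 and 533 CPM in controls on chow (median 451) and between 365 and 501 CPM in HGFAC-KO mice on chow (median 396). On HF/HS it was between 364 and 556 CPM in controls (median 466) and between 386 and 542 CPM in HGFAC-KO mice (median 470). All groups overlapped. The log2 fold change between genotypes was -0.13 on chow (95% interval -0.31 to 0.06, adjusted p = 0.823) and 0.01 on HF/HS (95% interval -0.20 to 0.21, adjusted p = 0.991), and that of diet 0.05 in controls (95% interval -0.15 to 0.25) and 0.19 in HGFAC-KO mice (95% interval -0.01 to 0.39, adjusted p = 0.259).

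*Plin5*, which tethers droplets to mitochondria in tissues that burn fat, also passed in no comparison. Its group means on chow were 86.1 ± 10.98 CPM (controls, SD, n = 7) and 87.1 ± 9.61 CPM (HGFAC-KO, n = 6), and on HF/HS 86.1 ± 11.02 and 94.5 ± 19.3 CPM (n = 7 and 7). In HGFAC-KO mice on HF/HS, replicates 2 and 6 were at 129 and 115 CPM and the other 5 between 81.1 and 85.7 CPM. The log2 fold change between genotypes was 0.02 on chow (95% interval -0.17 to 0.21) and 0.14 on HF/HS (95% interval -0.11 to 0.38, adjusted p = 0.733), and the latter was 0.04 without replicate 2.

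*Plin4*, a coat protein best known from fat cells, had lower means on HF/HS in both genotypes, and neither difference passed the test. In controls it was between 9.53 and 18.3 CPM on chow (median 16.4) and between 8.93 and 16.2 CPM on HF/HS (median 10.2), with overlap at both ends, 1 low chow mouse and 1 high HF/HS mouse. This gave a log2 fold change of -0.40 (SE 0.149, 95% interval -0.72 to -0.09, adjusted p = 0.0969). It passed in 2 of 14 fits that left out a mouse, without control replicate 5 on chow (adjusted p = 0.0309) or replicate 7 on HF/HS (0.0241). Those are the low chow mouse and the high HF/HS mouse. The adjusted p ran up to 0.19 without other mice, and 0 of 8 other settings passed. In HGFAC-KO mice it was between 10.004 and 17.96 CPM on chow and between 7.56 and 16.5 CPM on HF/HS, with a log2 fold change of -0.31 (95% interval -0.70 to 0.07, adjusted p = 0.333). Between genotypes it was -0.14 on chow and -0.05 on HF/HS.

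*Cidec*, the droplet fusion protein, varied between mice with an SD of 46.0% of its mean, against 33.6% for *Cd36* and 26.9% for *Pparg*. In controls it was between 6.66 and 15.6 CPM on chow (median 10.4) and between 5.64 and 14.5 CPM on HF/HS (median 7.97). In HGFAC-KO mice it was between 4.45 and 14.3 CPM on chow (median 6.43) and between 4.09 and 21.1 CPM on HF/HS (median 4.91). The last group split: replicates 1, 2 and 6 were at 10.3, 14.4 and 21.1 CPM and the other 4 between 4.09 and 4.91 CPM, below all controls on that diet. Replicates 2 and 6 were also the ones with high *Plin5*. The log2 fold change between genotypes was -0.40 on chow (95% interval -0.99 to 0.19, adjusted p = 0.823) and 0.03 on HF/HS (95% interval -0.80 to 0.86, adjusted p = 0.991), and the chow value was -0.67 and the HF/HS value -0.32 without HGFAC-KO replicate 6 of that diet.

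*Cidea*, the relative of *Cidec* that is known from brown fat and from steatotic liver, was at the limit of detection. It had 0 to 11 counts per mouse, with a group median of 0 CPM in controls on chow, 0.0131 in HGFAC-KO mice on chow, 0.0264 in controls on HF/HS and 0.0237 in HGFAC-KO mice on HF/HS. Control replicate 1 on HF/HS had the 11 counts (0.228 CPM), and no other mouse had more than 4. No fold change is given, since every group median was under the level of 3 counts.

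Between mice of the same group, *Plin2* followed *Pparg*. With group means removed, Pearson's r over 27 mice was 0.68 (permutation p = 0.00023, adjusted p = 0.00521 over 68 relations) and Spearman's rho 0.64 (permutation p = 0.00101). Within single groups r was 0.58 (controls) and 0.48 (HGFAC-KO) on chow and 0.82 and 0.76 on HF/HS, and 0.62 without the 2 mice farthest from the median of *Pparg*. In edgeR's fit over all genes with *Pparg* as a covariate, the slope of *Plin2* was 0.38 log2 units per log2 unit of *Pparg* (SE 0.0855, 95% interval 0.21 to 0.56, adjusted p = 0.0445), and 0.201% of 13931 genes were called with a positive slope. *Plin2* had the 27th highest r among these genes, where r ran from -0.51 to 0.50 for the central 95% of genes. The call was lost with upper-quartile scaling (adjusted p = 0.0569), with no filter on low counts (0.0526) and with the replicate number as a block, which left the slope at 0.29 (adjusted p = 0.639).

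No other member passed that test. *Plin5* had r = 0.39 (permutation p = 0.0686, rho 0.34 with permutation p = 0.101) and a slope of 0.26 (adjusted p = 0.343). The r with *Pparg* was 0.25 for *Cd36* (permutation p = 0.251), 0.19 for *Mogat1* (0.293), 0.01 for *Fabp4* (0.95), -0.03 for *Cidec* (0.888) and -0.17 for *Plin4* (0.435). For *Cd36* the groups differed in sign: r was -0.30 in controls and -0.80 in HGFAC-KO mice on chow, but 0.70 and 0.71 on HF/HS, a difference that was not tested. *Pparg* also had r = 0.50 with 8 summed hepatocyte markers (permutation p = 0.0274, adjusted 0.209, rho 0.49 with permutation p = 0.0255), and their part in the relation with *Plin2* was not tested.

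**Figure D4:**
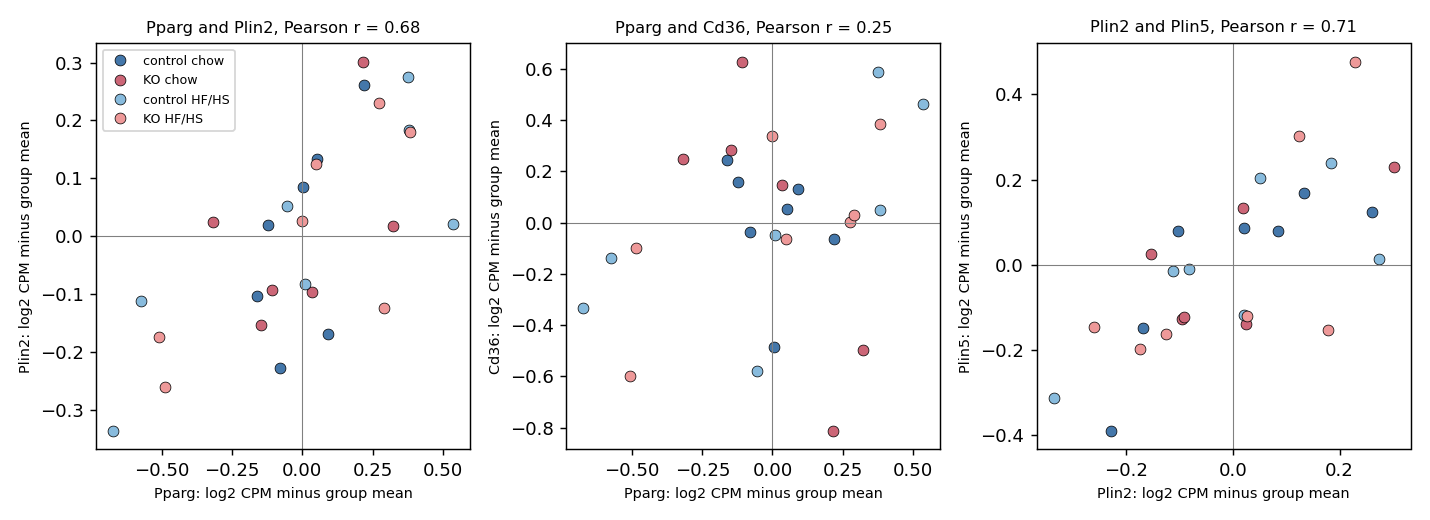
Log2 CPM minus the group mean for *Pparg* against *Plin2* (left), *Pparg* against *Cd36* (middle) and *Plin2* against *Plin5* (right). Each point is 1 of 27 mice, coloured by group. *Plin2* rises with *Pparg* (r = 0.68) and *Plin5* with *Plin2* (r = 0.71), while *Cd36* scatters (r = 0.25).

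Among the 28 pairs of members, 2 passed after adjustment over the 68 relations: *Pparg* with *Plin2* and *Plin2* with *Plin5*. The droplet coat genes *Plin2* and *Plin5* had r = 0.71 (permutation p = 6e-05, adjusted p = 0.00204) and rho 0.71 (permutation p = 9e-05), with r of 0.81, 0.69, 0.72 and 0.68 in the 4 groups and 0.65 without the 2 farthest mice. *Fabp4* and *Mogat1* had r = -0.72 (permutation p = 0.0069, adjusted p = 0.107, rho -0.51 with permutation p = 0.0124), but r was -0.32 without HGFAC-KO replicates 1 and 2 on chow, so the size of the pooled value rested on those mice. Within single groups it was -0.56 (controls) and -0.92 (HGFAC-KO) on chow and -0.76 and 0.45 on HF/HS.

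**Figure D5:**
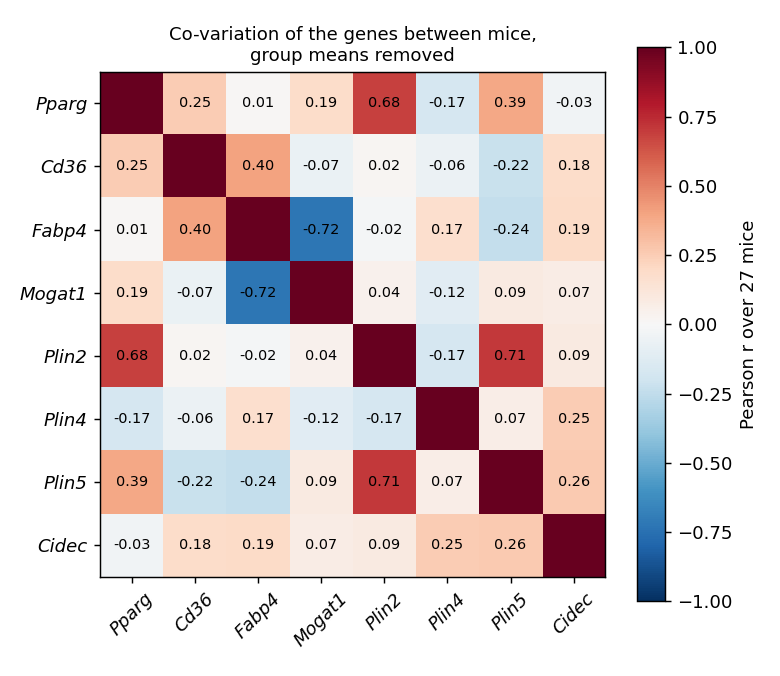
Pearson's r between the 8 members tested over 27 mice with group means removed (colour scale from -1 to 1, values printed in the cells). The warmest cells off the diagonal are *Plin2* with *Plin5*, at 0.71, and *Pparg* with *Plin2*, at 0.68, and *Fabp4* with *Mogat1* is the coldest, at -0.72.

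The 10 genes whose level was most like that of *Pparg*, by Pearson's r over 27 mice with group means removed, were *Spon2*, *Slc22a5*, *Pex5*, *Zmym3*, *Clstn3*, *Crat*, *Tlr12*, *Lipa*, *Usp28* and *Cyb5b*, with r from 0.72 to 0.75. *Slc22a5* is the carnitine transporter (r = 0.74, slope 0.55), *Crat* carnitine acetyltransferase (r = 0.73, slope 0.53), *Pex5* the import receptor of peroxisomes (r = 0.74, slope 0.24) and *Lipa* the lysosomal acid lipase (r = 0.73, slope 0.34). All 10 had an adjusted p between 0.0337 and 0.0421 in the edgeR fit, where 60 genes passed, but 0 genes passed with the replicate block and 25 without the filter on low counts.

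Other genes of lipid handling were taken as 5 lists: lipid droplet proteins and lipases (20 genes, 18 tested), triglyceride synthesis (20), fatty acid uptake and binding (15), partners and coregulators of PPARG (20) and other PPAR target genes (22). No gene of these lists passed the edgeR test between genotypes on either diet, over both diets, or for the difference between the diets. At an unadjusted p under 0.05 over both diets there were 7 droplet genes, 4 synthesis genes, 5 uptake genes, 2 partners and 8 other PPAR targets, against 1821 of the 13932 genes tested. Over both diets, 17 of 21 other PPAR targets tested had a negative fold change, with a median of -0.14 against -0.0031 over all genes. Among them *Cpt2*, of mitochondrial fatty acid import, had a log2 fold change of -0.14 (adjusted p = 0.103). Among droplet genes, *Fitm1*, which promotes droplet budding, had -0.58 (SE 0.130, adjusted p = 0.0626). Over both diets DESeq2 called *Fitm1*, the fatty acid transport gene *Slc27a4* and *Cpt2*, among others of the lists.

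In the uptake and binding list, 12 of 15 genes had a negative fold change over both diets (median -0.08), with *Slc27a4* at -0.12 (adjusted p = 0.114) and *Fabp2* at -0.31 (adjusted p = 0.132). In triglyceride synthesis 11 of 20 were negative (median -0.02), with *Lpin2* at -0.41 (adjusted p = 0.160) and *Gpd1* at -0.20 (adjusted p = 0.163). Of the partners, *Ppard* was at 0.18 (adjusted p = 0.202) and *Ncoa2* at -0.15 (adjusted p = 0.379). The 8 members tested had a median of -0.14 over both diets, with 6 negative, of -0.22 on chow, against 0.0031 over all genes, and of -0.08 on HF/HS, against -0.0015. On chow alone the smallest p among the lists belonged to *Ehhadh*, of peroxisomal oxidation (log2 fold change -0.40, adjusted p = 0.801), and on HF/HS to *Cyp4a10*, of fatty acid omega oxidation (-0.31, adjusted p = 0.339). DESeq2 called *Ehhadh* on chow (adjusted p = 0.00608) and *Cpt2* (adjusted p = 0.0486) and *Cyp4a10* (adjusted p = 0.0495) on HF/HS.

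Several genes of the lists changed with diet. In controls, where 4.93% of all genes were called higher and 5.6% lower, the lipases of the droplet list split: *Lipe* (hormone-sensitive lipase) fell by 0.55 on the log2 scale (adjusted p = 0.000557) and the coat gene *Plin3* fell by 0.54 (adjusted p = 0.00152), while *Mgll* (monoacylglycerol lipase) rose by 0.52 (adjusted p = 0.000762), with *Cideb* also higher and *Pnpla2* and *Hsd17b13* also lower. In triglyceride synthesis 2 rose and 3 fell (*Gpd1* and *Acsl3* besides those that follow), with *Gpat3* at -1.32 (adjusted p = 2.94e-07), *Mogat2*, the intestinal relative of *Mogat1*, at -2.17 (adjusted p = 0.000667, on 12 to 35 counts per mouse on chow and 1 to 7 on HF/HS, so its size is imprecise) and *Lpin1* at 1.00 (adjusted p = 0.0105). In uptake and binding 5 rose and 1 fell, those with the smallest p being *Fabp1* (0.61, adjusted p = 0.000359), *Slc27a2* (0.33, adjusted p = 0.000457) and *Fabp2* (0.71, adjusted p = 0.000808), with *Lipc* also higher and *Fabp5* at 1.83 (adjusted p = 0.000988). Of the relatives of *Pparg*, *Ppara* rose by 0.42 (adjusted p = 0.0162) and *Ppard* fell by 0.25 (adjusted p = 0.0233), with the coactivator *Crebbp* at 0.31 (adjusted p = 0.0141), and *Nr1h3* (LXR alpha) also higher. Of the other PPAR targets 3 rose and 1 fell, with *Pdk4* at -0.93 (adjusted p = 0.0227), *Fgf1* at 0.16 (adjusted p = 0.0308) and *Angptl4* higher. These counts were not stable: the 4 other PPAR targets became 1 without control replicate 2 on chow, 2 without replicate 5, 6 or 7 on chow or replicate 5 on HF/HS and 2 with the replicate block, the 4 partners became 2 without replicate 6 or 7 on chow or 6 on HF/HS and 1 with the block, and the 5 synthesis genes became 3 without replicate 6 on chow or 5 on HF/HS and 3 with the block.

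In HGFAC-KO mice, where 3.17% of all genes were called higher and 2.73% lower, 1 droplet gene rose and 1 fell, 2 synthesis genes fell, 2 uptake genes and 1 partner rose, and of the other PPAR targets 1 rose and 1 fell. *Mgll* rose by 0.36 (adjusted p = 0.0178) and *Pnpla2*, the first lipase of droplet triglyceride, fell by 0.36 (adjusted p = 0.0377). *Gpat3* fell by 1.00 on the log2 scale (adjusted p = 0.000557) and *Mogat2* by 1.31 (adjusted p = 0.0269, on 10 to 28 counts per mouse on chow and 3 to 12 on HF/HS), *Fabp5* rose by 1.75 (adjusted p = 0.00106, from 10.9 ± 2.40 to 36.8 ± 13.9 CPM, SD, n = 6 and 7) and *Fabp1* by 0.44 (adjusted p = 0.0303), and *Crebbp* rose by 0.31 (adjusted p = 0.0129). Of the other PPAR targets *Ucp2* rose by 0.47 (adjusted p = 0.0199) and *Pdk4* fell by 0.98 (adjusted p = 0.0272). With DESeq2 5 uptake genes, 5 other PPAR targets, 4 synthesis genes and 2 partners passed in that comparison. Leaving out single mice, the genes called ranged from 1 to 4 for droplet genes (1 without replicate 2, 4 or 6 on chow or 1, 4, 5 or 7 on HF/HS, 4 without replicate 1 on chow), from 1 to 3 for synthesis (1 without replicate 2, 4 or 6 on chow or 2 or 6 on HF/HS), from 1 to 3 for uptake (1 without replicate 3, 4 or 5 on chow or 1 on HF/HS) and from 1 to 4 for the other PPAR targets (1 without replicate 3 or 6 on chow or 6 on HF/HS, 4 without replicate 1 on chow or 4 on HF/HS). The count of partners was 1 (*Crebbp*) or 2 (2 without replicate 4 on chow or 2 on HF/HS, with upper-quartile scaling and with all 27 mice in 1 fit), and the call of *Crebbp* was lost with the replicate block.

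Fat cells are the tissue richest in *Pparg*, *Fabp4*, *Plin4* and *Cidec*, so adipocyte markers were read in the same livers. Of 9 markers, *Lep* had 0 counts in every mouse and *Ucp1* 1 count in 1 mouse, and *Adipoq*, *Plin1* and *Retn* had at most 0.320, 0.291 and 0.125 CPM. *Cfd* (adipsin) was counted in every mouse, with 2 to 79 counts and up to 1.64 CPM. *Adipoq* was highest in HGFAC-KO replicate 1 on HF/HS (15 counts) and control replicate 1 on chow (14 counts). The adipocyte list summed to 103 to 123 CPM in controls, against 93.5 to 124 CPM in HGFAC-KO mice, on chow, and to 70.9 to 96.3 CPM, against 75.2 to 105 CPM, on HF/HS, nearly all of it from *Pnpla2*, *Lipe* and *Adrb3*, which were present in every mouse. Among the other markers, summed hepatocyte genes, led by *Alb*, reached higher in HGFAC-KO mice, between 86246 and 100778 CPM against 76807 to 92172 CPM in controls on chow and between 87986 and 115588 CPM against 78053 to 97195 CPM on HF/HS. The sum is mostly *Alb*: of the 8 hepatocyte markers, 4 had a positive and 4 a negative fold change between genotypes on chow, and 3 and 5 on HF/HS (median -0.09). Their part in the lower *Pparg* was not tested.

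Macrophage markers (10 genes) had a median sum on chow of 197 CPM (controls) and 159 CPM (HGFAC-KO), and on HF/HS of 213 and 233 CPM, and stellate markers (8 genes) of 337 and 301 CPM on chow and 390 and 373 CPM on HF/HS. None of the adipocyte, macrophage, endothelial or stellate markers passed the edgeR test between genotypes, and 1 hepatocyte marker, *Alb*, was higher in HGFAC-KO mice over both diets (log2 fold change 0.30, adjusted p = 0.0283). With diet in controls, *Colec11*, *Ecm1* (stellate) and *Apoa1* (hepatocyte) rose, and *Lrat* (stellate), *Tat* (hepatocyte), *Lipe* and *Pnpla2* fell. In HGFAC-KO mice the macrophage markers *Cd68*, *Clec4f*, *Cd5l* and *Adgre1* and the endothelial marker *Stab2* rose with diet, and *Tat* and *Pnpla2* fell. Their part in the diet differences of the members was not tested.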

How the data were processed

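RNA was taken from frozen liver, and mRNA libraries were made with a stranded kit and sequenced as paired-end reads. The authors aligned reads to GRCm38 (mm10) with HISAT2 2.1.0 and counted them per gene with featureCounts 1.6.3 (per the labels and the study's methods). The annotation and strand setting are not given in the sources used here. The deposited values are counts per gene, without normalization. Of 27179 rows, 3886 name no gene. These held 4.13% to 12.1% of a mouse's counts and entered neither library sizes nor any test. Rows of 89 symbols on more than 1 row were summed.

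Fits were made with edgeR 4.0.16 (R 4.3.3) after TMM scaling and filterByExpr (minimum count 10, minimum total 15), by robust quasi-likelihood with Benjamini-Hochberg adjustment over all genes tested, threshold 0.05. Tests of 1 group against another used only the mice compared. The knockout over both diets (diet as a covariate), the interaction and the association with *Pparg* (its log2 CPM, prior count 2, minus the group mean, as a covariate) used 27 mice. Standard errors are the fold change over the root of F. Correlations used 100000 two-sided permutations within groups, whose smallest possible p is 1e-05. Depth was 36056177 to 57298657 counts per mouse, so genes under 1 CPM are imprecise. The 95% intervals of fold changes and slopes come from the fits and include the spread between mice, while the level of 3 counts covers counting error only.

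Groups came from the labels. Every pair of libraries in a group differed beyond counting noise (lowest chi-square per gene 17.7). The labels number mice 1 to 7 in each group but name no shared litter or day. In 8 of 26 same-numbered pairs the correlation of deviations was over 0.1, so the numbers were not taken as pairs. Beyond separate animals nothing is said of replicates. The 9 genes, the lists and the tests were chosen with earlier results of these data known. Named genes were the members, *Hgfac*, the 3 of a list with the smallest p among those past the threshold (2 where none passed) and the 10 most like *Pparg*. A few further genes and mice were named after their values were seen. Some genes that this rule names are not reported here. Alternatives were DESeq2 1.42.0, limma voom 3.58.1, RLE and upper-quartile scaling, no filter, 10 counts in every library, the replicate block and all 27 mice in 1 fit. Each mouse was also left out in turn, except for the association. There the share of unnamed counts was added as a covariate instead. Fits were tested on simulated data with the same fixed spread for every gene and changes larger than that of *Pparg* between genotypes. That setting does not show how the fits handle effects of the size seen here.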

Additional observations from a re-analysis of the deposited data

Results flagged for a closer look

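Of 40 sets of mice (the 9 members and *Hgfac* in each group), 4 held a mouse whose gap to its nearest neighbour was past Dixon's 95% limit. Chance flags about 1 set in 20. *Fabp4* was 11.4 CPM in HGFAC-KO replicate 1 on chow, with the next mouse at 5.56 CPM. *Fabp4* was 6.80 CPM in HGFAC-KO replicate 1 on HF/HS, next to 5.34 CPM. *Cidea* was 0.228 CPM in control replicate 1 on HF/HS, next to 0.0612 CPM, which is 11 counts against 3. *Plin2* was 501 CPM in HGFAC-KO replicate 2 on chow, next to 413 CPM.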

How the results depend on the processing

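The *Pparg* and *Cd36* fold changes between genotypes and the *Cd36* fold change with diet kept their sign under all alternatives in each comparison, and 1360 of 1445 values of single genes kept sign and side of the threshold. DESeq2 called more genes: 13 between genotypes on chow, 55 on HF/HS, 180 over both diets, where it called 1 member, *Pparg*, 1400 for diet in HGFAC-KO mice and 259 for the association with *Pparg*. Without a filter on low counts that association had 25 genes, and 0 members passed there or with upper-quartile scaling. A fit of all 27 mice called 1 gene between genotypes on HF/HS. With the replicate block, 774 genes and 0 members passed for diet in controls, 14 genes for genotype over both diets, and 0 genes and 0 members for the association. In 4 of 26 same-numbered pairs, the control mouse (between genotypes) or the chow mouse (between diets) correlated best with its own number in the other group. The reverse direction was not checked.

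Leaving out single mice, genes called ranged from 2 to 11 (without HGFAC-KO replicate 5 on HF/HS) for genotype on HF/HS, from 2 (without HGFAC-KO replicate 2 on HF/HS) to 63 (without control replicate 7 on HF/HS) over both diets, and from 467 (without HGFAC-KO replicate 2 on chow) to 950 for diet in HGFAC-KO mice. Members called ranged from 0 to 2 for diet in controls, the second being *Plin4*, and from 0 to 1 over both diets.

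Signs turned for these values, none of them past the threshold. *Plin5* with diet in controls was 0.0034 with DESeq2, 0.0034 with RLE factors and 0.00025 with all mice, and -0.057 to 0.046 without single mice. *Cidec* between genotypes on HF/HS was -0.21 with voom, -0.19 with the replicate block and -0.32 to 0.19 without single mice, and its slope on *Pparg* was 0.20 with the replicate block and 0.049 with the unnamed share as a covariate. *Fabp4* over both diets was -0.052 with voom, -0.042 with the replicate block and -0.14 to 0.053 without single mice, with diet in HGFAC-KO mice 0.011 with the replicate block and -0.25 to 0.18 without single mice, on chow -0.18 to 0.26, and its slope 0.021 with voom. *Mogat1* with diet in HGFAC-KO mice was 0.031 with voom and -0.35 to 0.044 without single mice. The other ranges without single mice were -0.035 to 0.049 for *Plin5* on chow, -0.044 to 0.057 for *Plin2* and -0.18 to 0.057 for *Plin4* between genotypes on HF/HS, -0.00034 to 0.10 for *Plin2* with diet in controls, -0.13 to 0.50 for *Cidec* with diet in HGFAC-KO mice, and, for the difference between the diets, -0.067 to 0.13 for *Pparg*, -0.36 to 0.064 for *Fabp4* and -0.034 to 0.20 for *Plin4*. The cause was not tested. At this depth *Cidea* was not measurable, and *Mogat1* rested on 4 to 33 counts per mouse.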

Other observations

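HGFAC-KO replicate 1 on chow stood apart in several members at once: it had the highest *Fabp4* of all 27 mice (11.4 CPM), the lowest *Mogat1* (0.0976 CPM), the highest *Plin4* of its group (17.96 CPM) and the lowest *Pparg* of its group (3.61 CPM), with *Cidec* at 7.57 CPM and *Plin2* at 413 CPM, both inside the range of its group. Control replicate 7 on HF/HS had the lowest *Pparg* (3.24 CPM), *Plin2* (364 CPM) and *Plin5* (68.8 CPM) of its group and its highest *Plin4* (16.2 CPM). These mice were singled out after their values were seen.

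The level of *Hgfac* itself was higher on HF/HS than on chow in controls (log2 fold change 0.43, SE 0.0509, edgeR adjusted p = 5.47e-05) and over the part of the gene still counted in HGFAC-KO mice (0.29, SE 0.0762, adjusted p = 0.0382). The second call was lost without any 1 of 8 mice, with the replicate block (adjusted p = 0.0601) and with upper-quartile scaling (adjusted p = 0.0559). Between mice of a group the slope of *Hgfac* on *Pparg* was 0.07 (95% interval -0.08 to 0.22, adjusted p = 0.736).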
